A study of Mus musculus with 5 samples.

Results

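The integrin subunits of gut homing and tissue retention were taken here as 10 genes, Itgae, Itgb7, Itga4, Itgb1, Itgal, Itgb2, Itga1, Itga2, Itga6 and Itgav. They were chosen by name, and every probe set whose only gene symbol was one of these was read. This gave 27 of the 45101 probe sets on the array, and each gene is given by its brightest probe set on average over the 5 arrays, the rule used for all 18193 genes measured. RNA of CD3+CD4+CXCR6 Hi and CD3+CD4+CXCR6 Lo T cells from the colonic lamina propria (LP) was hybridized to 2 arrays each, and RNA of CD3+CD4+CD45Rb Hi naive T cells to 1 array. The LP cells came from Rag1-/- mice that had received CD4+CD45RBhigh T cells from BALB/c spleen and had developed colitis. These hosts have no mature T or B cells of their own but keep epithelial, stromal and myeloid cells. The subsets were sorted by binding of a CXCL16-Fc fusion protein, the ligand of the chemokine receptor CXCR6. The mice were 8 to 12 weeks old when experiments began, and the sources place the LP sort at 6 or at 8 weeks after transfer. BALB/c is the labelled strain of all 5 samples. For the naive sample the labels name spleen in one field and LP of healthy mice in another, and the methods name spleen. The arrays are called biological replicates, but the number of mice behind each is not stated, so the p-values reflect array to array spread alone, which may be technical.

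Integrins are pairs of an alpha and a beta chain that bind cells to other cells or to matrix, and their hold is switched on from inside the cell by talin and kindlins. The pair of Itga4 and Itgb7 binds MAdCAM-1 on gut venules and lets T cells enter the intestine, while the pair of Itgae (CD103) and Itgb7 binds E-cadherin on epithelium and holds T cells near it. Itgal and Itgb2 form LFA-1, which binds ICAM-1 in T cell contacts and during exit from blood. Itgb1 pairs with Itga1 or Itga2 into collagen receptors, with Itga6 into a laminin receptor and with Itga4 into a VCAM-1 receptor, and Itgav is the alpha chain of receptors for vitronectin, fibronectin and latent TGF-beta.

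Promoter sequences were at hand for 6 of the 10 genes, Itga1, Itga2, Itga4, Itgav, Itgb1 and Itgb7, in the RefSeq table of build GRCm38.p6. No entry was matched for Itga6, Itgae, Itgal and Itgb2. The 250 bases before the gene start are shown for Itga1 and Itgb1, the genes with an entry whose signals passed the test below, and for Itgb7, the beta chain that the gut-homing pairs share. They lie at chr13:115101965-115102214 on the minus strand for Itga1, at chr8:128685404-128685653 on the plus strand for Itgb1, and at chr15:102231936-102232185 on the minus strand for Itgb7. Capitals mark matches to the letters of 4 motifs searched on both strands, namely Runx (TGTGGT), ETS (GGAAGT), GC box (GGGCGG) and AP-1 (TGANTCA).
Itga1: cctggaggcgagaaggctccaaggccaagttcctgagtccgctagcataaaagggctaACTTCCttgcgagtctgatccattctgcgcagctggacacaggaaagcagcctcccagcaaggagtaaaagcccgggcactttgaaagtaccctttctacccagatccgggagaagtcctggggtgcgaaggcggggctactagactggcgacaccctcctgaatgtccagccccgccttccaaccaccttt
Itgb1: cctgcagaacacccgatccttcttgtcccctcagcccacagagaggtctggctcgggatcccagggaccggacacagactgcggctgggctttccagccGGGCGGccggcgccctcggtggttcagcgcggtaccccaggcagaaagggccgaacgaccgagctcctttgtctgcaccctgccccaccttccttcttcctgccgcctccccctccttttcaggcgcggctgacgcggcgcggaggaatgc
Itgb7: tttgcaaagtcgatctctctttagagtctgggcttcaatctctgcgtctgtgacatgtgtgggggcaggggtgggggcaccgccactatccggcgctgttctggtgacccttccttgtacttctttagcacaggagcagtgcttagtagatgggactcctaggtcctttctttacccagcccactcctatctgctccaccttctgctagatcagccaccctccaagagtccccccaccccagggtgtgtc
Itga1 held 1 match to the ETS letters, which starts 192 bases before the gene start. Itgb1 held 1 match to the GC box letters at 151 bases before it, and Itgb7 and Itga2 held no match to any of the 4. Of the genes not shown, Itga4 had 1 Runx match and 1 GC box match, and Itgav had 2 ETS matches. Of all 32851 promoter windows of this length, 14.0% held the Runx letters, 19.7% the ETS letters, 32.7% the GC box letters and 6.75% the AP-1 letters, so these matches are a description of the windows and not of binding.

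The 4 LP arrays and the naive array stood apart across all genes, and this touches every LP against naive value that follows. Across genes, which do not count as replicates, any pair of LP arrays had a Spearman correlation of 0.951 to 0.957, and LP arrays with the naive array one of 0.821 to 0.826. Tissue, cell state, host, sex of the cells, digestion of the tissue and array handling cannot be told apart in that comparison. The 3 prime to 5 prime Gapdh ratio, a sign of RNA quality, was 2.81 and 3.98 on the CXCR6 Hi arrays. It was 4.19 and 6.96 on the CXCR6 Lo arrays and 1.51 on the naive array. The 3 prime probe set of the Dap array control was at 64.6 to 102 on the LP arrays and at 0.194 on the naive array. The LP and naive arrays thus differed in a control signal too, and its part in the differences was not tested. Xist, expressed in female cells, was at 181 to 215 in LP cells and at 0.864 in naive cells, and the Y-linked Eif2s3y at 1.59 to 3.41 and 53.5. Summed signals of fibroblast and smooth muscle markers were 109 to 173 on LP arrays against 11.99 on the naive array, with 12 of 14 markers above it on all LP arrays and Pdgfrb, Myh11 and Cnn1 under the array median on all 5. Epithelial markers summed to 62.0 to 145 against 115, of which Car1 gave 85.2 on the naive array, and 15 of 20 were above it on all LP arrays. B cell markers summed to 5.58 to 6.50 against 65.3. Myeloid markers summed to 334 to 469 against 452, with 6 of 15 above the naive array on all LP arrays and 6 below it. Among them, Cd14 was at 58.5 to 93.0 against 1.95, and S100a9 at 3.1 to 5.8 against 114. Platelet and erythroid markers summed to 15.7 to 22.8 against 42.7. Endothelial markers summed to 8.89 to 11.8 against 17.2, with Cdh5, Tie1 and Emcn under 1 on all 5 arrays. The CD4 T cell markers summed to 1029 and 1165 on the CXCR6 Hi arrays, 896 and 820 on the CXCR6 Lo arrays and 779 on the naive array. None of the 12 was under 1 on all LP arrays or on the naive array. The 6 naive T cell markers measured summed to 560 to 651 on LP arrays against 416 on the naive array, against the order of the labels. All LP arrays were above the naive array for 3 of them and below it for 3. Il7r passed as higher in LP cells (log2 difference 1.46) and Lef1 as lower (-3.13). Cxcr6 itself was at 184 and 225 on the CXCR6 Hi arrays, 58.1 and 25.3 on the CXCR6 Lo arrays and 10.5 on the naive array, in the order of the labels. The part of other cell types and of RNA quality was not tested, neither in the LP against naive differences nor between the subsets.

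Against naive T cells, LP T cells had a 14.0-fold higher Itgae signal, a 2.63-fold higher Itga1 signal, a 6.11-fold lower Itga6 signal and a 4.01-fold lower Itgb1 signal. These 4 passed limma's test at an adjusted p under 0.05 (LP, n = 4 arrays, naive, n = 1), and the other 6 did not. The shares of all genes that passed were 15.1% higher and 18.8% lower, against 2 of 10 and 2 of 10 for the integrins, so the number of changed integrins was near that of all genes. With genes under the 40th percentile of signal left out, 5 were called higher and 4 lower, the added ones being Itgal, Itgb2, Itga2, Itga4 and Itgav. Of the 10916 genes kept by that filter, 22.7% were higher and 39.5% lower. The median log2 difference was 0.24 over the 10 integrins and -0.14 over all genes. In bulk RNA, fewer cells of a type and less RNA per cell cannot be told apart. All values are signals relative to an array median of 1, and fold changes and intervals come from the log2 scale.

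**Figure D1:**
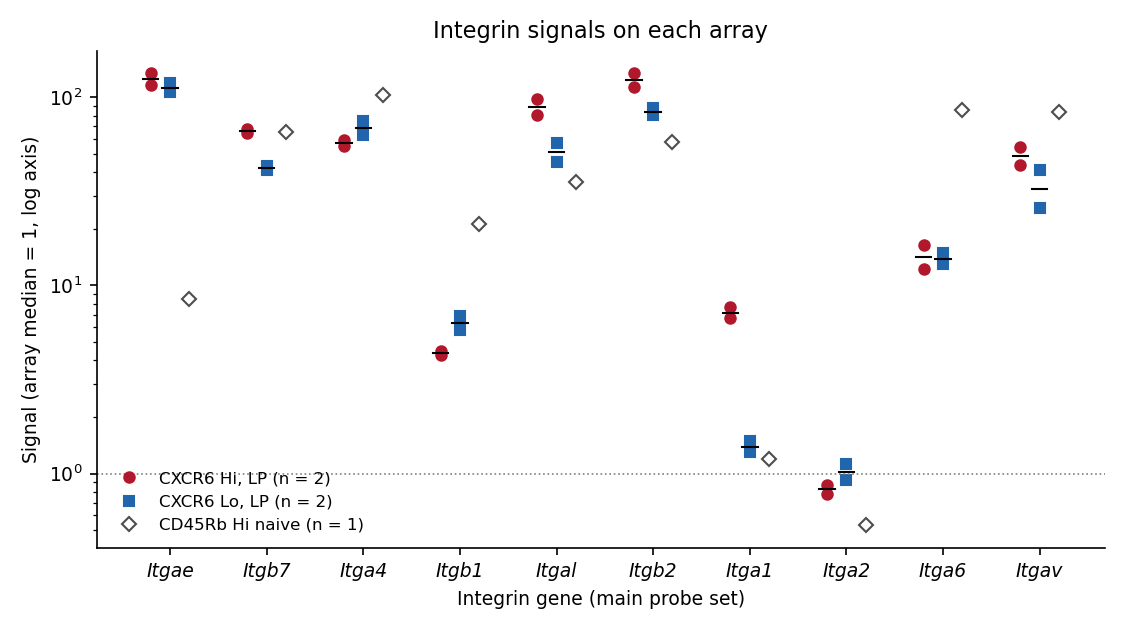
Signal of the main probe set of each integrin gene on all 5 arrays (logarithmic axis, dotted line at the array median of 1), with CXCR6 Hi in red circles, CXCR6 Lo in blue squares, the naive array as an open diamond and a black bar at each pair's mean on the log scale. Itgae sits at 106 to 134 for LP cells and at 8.44 for naive cells, and Itga1 is the gene whose CXCR6 Hi arrays (7.65 and 6.73) are far above both other groups (1.20 to 1.49).

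Itgae, the alpha chain that binds E-cadherin, had signals of 116 and 134 on the CXCR6 Hi arrays, 120 and 106 on the CXCR6 Lo arrays and 8.44 on the naive array. All LP arrays were above the naive array, and the subsets overlapped. The LP against naive log2 difference was 3.81 (SE 0.26, adjusted p = 0.0119, limma). Each subset alone differed from the same naive array by a like size, 3.88 for CXCR6 Hi (adjusted p = 0.0160, limma) and 3.74 for CXCR6 Lo (adjusted p = 0.0157, limma). Between the subsets the log2 difference was 0.14 (95% interval -0.52 to 0.81). Its second probe set read 42.7 and 50.1, 39.7 and 38.9, and 4.07 in the same order of arrays, a log2 difference of 3.39 against the naive array. Both probe sets of Itgae therefore gave LP signals above the naive array on every LP array.

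The beta chain that Itgae needs, Itgb7, did not follow this pattern. Its signal was 64.6 and 67.9 on the CXCR6 Hi arrays, 42.9 and 41.0 on the CXCR6 Lo arrays and 65.2 on the naive array. The naive array thus lay within the LP range, level with the CXCR6 Hi arrays and above both CXCR6 Lo arrays. The LP against naive log2 difference was -0.31 (SE 0.24, adjusted p = 0.371, limma), made of 0.02 for CXCR6 Hi and -0.64 for CXCR6 Lo (adjusted p = 0.147, limma).

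Itga4, the alpha chain of the MAdCAM-1 and VCAM-1 receptors, had signals of 55.4 and 59.0 on the CXCR6 Hi arrays, 63.3 and 74.6 on the CXCR6 Lo arrays and 102 on the naive array. All LP arrays were below the naive array, but the log2 difference of -0.71 did not pass (SE 0.26, adjusted p = 0.111, limma). Its 5 probe sets went both ways, 3 with all LP arrays below the naive array and 2 with all above it. The probe set 1450155_at read 2.69, 3.37, 3.80 and 3.60 in LP cells and 16.7 in naive cells (log2 difference -2.32, adjusted p = 0.0194 over all probe sets, limma). The probe set 1456498_at read 19.4, 9.75, 12.4 and 7.05 in LP cells and 3.24 in naive cells, with adjusted p = 0.0955 in that limma fit. No single direction therefore describes Itga4 across its probe sets.

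Itgb1, the common beta chain of the matrix receptors, had signals of 4.26 and 4.50 on the CXCR6 Hi arrays, 6.90 and 5.83 on the CXCR6 Lo arrays and 21.1 on the naive array. Every LP array was below the naive array, with a log2 difference of -2.00 (SE 0.26, adjusted p = 0.0173, limma). The differences from the shared naive array were -2.27 for CXCR6 Hi (adjusted p = 0.0209, limma) and -1.74 for CXCR6 Lo (adjusted p = 0.0278, limma). Of its 6 probe sets, 5 had all LP arrays below the naive array. The second brightest, 1452545_a_at, read 3.94 and 3.30, 5.88 and 4.17, and 17.9 in the same order of arrays. Of these 5, 1426919_at and 1426920_x_at were under the array median on all 5 arrays. So was the exception, 1438119_at, at 0.218 or less.

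Itga6, the laminin receptor chain, had signals of 16.4 and 12.3 on the CXCR6 Hi arrays, 13.0 and 14.9 on the CXCR6 Lo arrays and 85.8 on the naive array. The LP arrays lay close together and far below the naive array, with a log2 difference of -2.61 (SE 0.30, adjusted p = 0.0156, limma). It was -2.60 for CXCR6 Hi (adjusted p = 0.0216, limma) and -2.63 for CXCR6 Lo (adjusted p = 0.0209, limma). The second probe set, 1422444_at, did not share this. It read 5.50 and 2.62, 5.84 and 6.48, and 5.29, so that the naive array lay within the LP range (log2 difference -0.13, SE 0.51).

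Itga1, the alpha chain of a collagen receptor also known as CD49a, had signals of 7.65 and 6.73 on the CXCR6 Hi arrays, 1.29 and 1.49 on the CXCR6 Lo arrays and 1.20 on the naive array. Both CXCR6 Hi arrays stood above the other 3, which were close to the array median. CXCR6 Hi cells differed from naive T cells by 2.58 on the log2 scale (SE 0.28, 5.98-fold, adjusted p = 0.0188, limma), and CXCR6 Lo cells by 0.21 (95% interval -0.61 to 1.03, adjusted p = 0.610, limma). The 2.63-fold LP difference is thus a mean of unlike subsets. A second Itga1 probe set, 1439713_at, read 0.716 and 0.835, 0.116 and 0.041, and 7.74. It kept the order of the subsets, but the naive array was the highest, and its LP against naive log2 difference was -5.07 (adjusted p = 0.0208 over all probe sets, limma). The direction of Itga1 against naive T cells therefore rests on which probe set is read, and the mean of both gave -1.84 (adjusted p = 0.0398, limma).

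Itga2, the other collagen receptor chain, was dim, at 0.783 and 0.869 on the CXCR6 Hi arrays, 0.929 and 1.13 on the CXCR6 Lo arrays and 0.531 on the naive array. Its LP against naive log2 difference of 0.79 did not pass (SE 0.27, adjusted p = 0.0984, limma). The LFA-1 chains both read higher in LP cells without passing. Itgal was at 80.3 and 97.9 on the CXCR6 Hi arrays, 57.3 and 45.2 on the CXCR6 Lo arrays and 35.6 on the naive array (log2 difference 0.91, SE 0.30, adjusted p = 0.0908, limma). Itgb2 was at 113 and 134 on the CXCR6 Hi arrays, 80.6 and 87.3 on the CXCR6 Lo arrays and 57.5 on the naive array (log2 difference 0.82, SE 0.26, adjusted p = 0.0853, limma). For both chains every LP array was above the naive array and the CXCR6 Hi arrays were the highest. Itgav was at 43.7 and 54.7 on the CXCR6 Hi arrays, 25.7 and 41.1 on the CXCR6 Lo arrays and 84.0 on the naive array. All LP arrays were below the naive array, and the log2 difference of -1.08 did not pass (SE 0.39, adjusted p = 0.111, limma).

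In the order of their LP against naive log2 differences, the genes ran from Itgae (3.81) over Itga1, Itgal, Itgb2, Itga2, Itgb7, Itga4, Itgav and Itgb1 to Itga6 (-2.61). The place of Itga1 (1.40) holds for its main probe set alone, since the second probe set (-5.07) would put it last and the mean of both (-1.84) between Itgav and Itgb1. The 95% interval of Itgae (3.06 to 4.56) did not reach that of Itga1 (0.65 to 2.14). The intervals of all other neighbours in this order overlapped. All 4 LP arrays were above the naive array for 5 of the 10 genes and below it for 4, where the shares of all genes were 35.0% and 40.9%. Taken relative to the median of all genes, the differences ran from -2.48 to 3.95 and no gene changed sign. Quantile normalization moved that median from -0.14 to -0.00 and kept the direction of all 10 LP against naive differences, with 3 genes higher and 2 lower, where 15.2% and 12.7% of all genes were called.

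The calls of Itga1 and Itgb1 rested on all 4 LP arrays being in the fit, and those of Itgae and Itga6 on both CXCR6 Lo arrays. Without CXCR6 Lo replicate 1 or replicate 2, the adjusted p of Itgae was 0.0509 or 0.0511 and that of Itga6 was 0.0552 or 0.0540 (limma). Without either CXCR6 Lo array 0 of all 18193 genes passed in this comparison, 7530 or 7545 of them having an unadjusted p under 0.05 (limma), so the loss was not particular to the integrins. The log2 difference of Itgae was then 3.77 or 3.85 and that of Itga6 -2.56 or -2.66. Both kept the call without either CXCR6 Hi array, at 0.0484 to 0.0499, where 4.53% to 5.49% of all genes passed in each direction. Itga1 and Itgb1 lost it without any of the 4 LP arrays, at 0.0694 to 0.0903 and 0.0538 to 0.0591. The log2 differences of these 4 genes kept their direction throughout. Averaging a gene's probe sets also ended the calls of Itga6 (log2 difference -1.37, adjusted p = 0.0800, limma) and Itgb1 (-1.50, adjusted p = 0.123, limma).

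**Figure D2:**
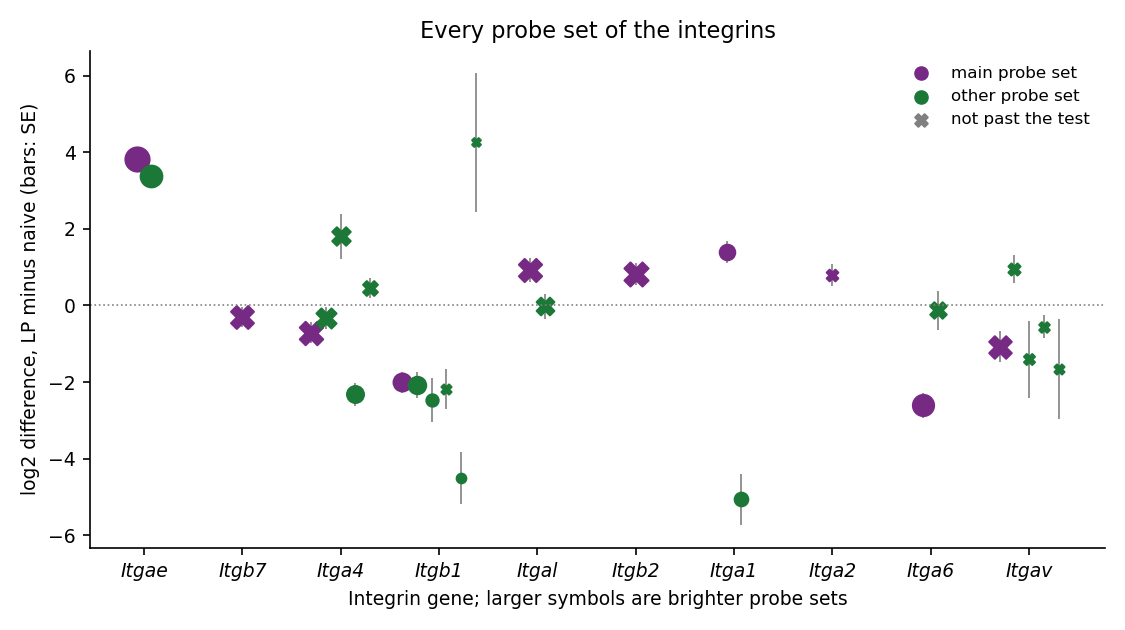
The log2 difference of LP minus naive for each of the 27 probe sets of the integrin genes, with bars for the SE, larger symbols for brighter probe sets, purple for the main probe set, green for the others and crosses for those not past the limma test over all probe sets. Both Itgae probe sets lie above 3, those of Itga1 lie on opposite sides of 0 (1.40 and -5.07), and 5 of the 6 Itgb1 probe sets lie below 0.

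Over all 27 probe sets, 10 had every LP array above the naive array, 14 had every LP array below it and 3 had the naive array within the LP range. Read by main probe set, 35.0% of all genes had every LP array above the naive array and 40.9% below it. These shares were not taken over all probe sets. When each probe set was tested on its own, 3 were higher, 7 were lower and 17 did not pass (limma, adjusted over 34945 probe sets). The shares of all probe sets were 13.1% higher and 16.5% lower. Among the integrin probe sets, 7 had a mean signal under the array median.

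Counted by subset, 2 integrins rose (Itgae and Itga1) and 2 fell (Itga6 and Itgb1) in CXCR6 Hi cells against naive T cells, where 13.2% of all genes rose and 15.3% fell. In CXCR6 Lo cells 1 rose (Itgae) and 2 fell (Itga6 and Itgb1), where 12.8% of all genes rose and 16.7% fell. Both counts rest on the same naive array. Among the integrins that did not pass, CXCR6 Hi cells differed most from it in Itgal (log2 difference 1.32, adjusted p = 0.0587, limma).

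Between the subsets, no integrin passed the test. The largest separation was that of Itga1, 5.17-fold higher on the CXCR6 Hi arrays, followed by Itgal, Itgb7, Itgav and Itgb2 at 1.74-fold to 1.47-fold higher, while Itgb1 read 1.45-fold lower. For limma the count at an adjusted p under 0.05 was 0 of 10 integrins, beside 0.00% of all genes. At an unadjusted p under 0.05 it was 3 of 10, beside 6.55% of all genes, and the methods' two-group test gave 2 of 10 unadjusted (Itga1 and Itgb7) and 0 adjusted, beside 7.05% of all genes unadjusted and 1 gene adjusted. On 5 of the 10 genes both CXCR6 Hi arrays were above both CXCR6 Lo arrays (25.1% of all genes), on 3 both were below (14.3%), and on Itgae and Itga6 they overlapped. The median log2 difference was 0.35 over the integrins and 0.08 over all genes. It was 0.46 over the 12 CD4 T cell markers, 7 of them above on both CXCR6 Hi arrays and 1 below. The Gapdh ratio was higher on both CXCR6 Lo arrays (4.19 and 6.96) than on the CXCR6 Hi arrays (2.81 and 3.98). The part of RNA quality and of general T cell signal in the subset differences was not tested.

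**Figure D3:**
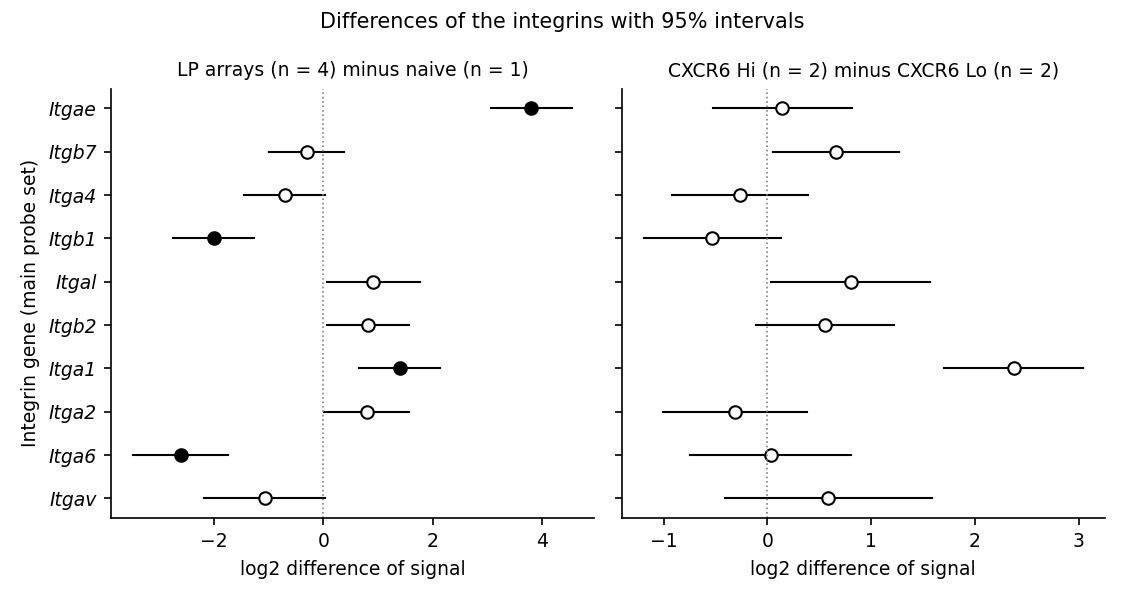
Log2 differences of the 10 integrin genes with 95% intervals, LP arrays minus the naive array on the left and CXCR6 Hi minus CXCR6 Lo on the right, filled where limma's adjusted p is under 0.05. On the left Itgae, Itga1, Itgb1 and Itga6 are filled, and on the right no point is filled, though the intervals of Itga1, Itgal and Itgb7 do not reach 0.

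For Itga1 the log2 difference between the subsets was 2.37 (95% interval 1.70 to 3.04, unadjusted p = 0.000786, adjusted p = 0.451, limma), which was rank 29 of 18193 genes by p and rank 97 among higher genes by size. It was 2.27 to 2.47 with any 1 LP array left out. The second probe set gave 3.49 in the same direction (adjusted p = 0.529 over all probe sets, limma) from signals under the array median. Stromal cells can express Itga1, and the summed fibroblast and smooth muscle markers were 109 and 173 on the CXCR6 Hi arrays and 134 and 167 on the CXCR6 Lo arrays, with no marker of 14 above on both CXCR6 Hi arrays and 4 below. The summed CD8 and intraepithelial T cell markers were 126 and 123 on the CXCR6 Hi arrays, 59.3 and 45.0 on the CXCR6 Lo arrays and 78.3 on the naive array. Of that sum Klrd1, an NK cell receptor chain that activated T cells also carry, gave 118 and 112, 55.1 and 39.1, and 53.9. Cd8a (3.07 and 4.67 against 1.88 and 1.47) and Cd244a (2.57 and 3.71 against 0.800 and 2.18) were also above on both CXCR6 Hi arrays. So 3 of the 5 markers had the subset order of Itga1. Of all genes, 25.1% were above on both CXCR6 Hi arrays and 14.3% below. Cd244a was highest on the naive array, at 18.4, unlike the main probe set of Itga1. Cd160 and Cd8b1 overlapped between the subsets, and Cd8b1 was at 0.090 to 0.415 on the LP arrays. The part of these cells in the Itga1 difference was not tested.

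The LFA-1 chain Itgal differed between the subsets by 0.80 on the log2 scale (95% interval 0.04 to 1.57, adjusted p = 0.739, limma), and its partner Itgb2 by 0.56 (-0.11 to 1.22, adjusted p = 0.761, limma). Both chains had their CXCR6 Hi arrays above their CXCR6 Lo arrays, and so did the second Itgal probe set. Itgb7 differed by 0.66 (0.05 to 1.27, adjusted p = 0.737, limma). Its possible partners lay elsewhere, Itgae at 0.14 and Itga4 at -0.27 (-0.92 to 0.39), with 4 of the 5 Itga4 probe sets lower on both CXCR6 Hi arrays and 1 overlapping. Itgb1 was at -0.53 (-1.19 to 0.13), Itgav at 0.59 (-0.41 to 1.58), Itga2 at -0.31 (-1.003 to 0.38) and Itga6 at 0.03 (-0.75 to 0.81). Averaged over probe sets, Itgav turned to -0.09, Itgb1 to 0.52 and Itga6 to -0.33, and quantile normalization turned Itgae to -0.10 and Itga6 to -0.14. The replicate gap behind these values was a median of 0.20 on the log2 scale for the integrins between the CXCR6 Hi arrays and 0.22 between the CXCR6 Lo arrays, against 0.24 and 0.19 for genes of mean signal 4 or more and 0.37 and 0.34 for all genes. A difference that misses the threshold in this design does not show that the subsets are alike.

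Among 7551 genes of mean signal 4 or more, those nearest to Itgae over the 5 arrays were Tbc1d1, Rnf125, Rnf149, Slc15a3 and Stx11. Likeness was the root mean square distance of log2 signals after each gene's mean was taken off. It was 0.0761 for Tbc1d1, a Rab GTPase activating protein, and 0.0783 and 0.0985 for the ubiquitin ligases Rnf125 and Rnf149. Slc15a3, a peptide and histidine transporter, was at 0.101 and Stx11, a syntaxin of cytotoxic granule release, at 0.130. Rnf125, for example, had signals of 161 and 175, 159 and 144, and 10.03. With 4 LP arrays and 1 naive array this likeness is mostly a matter of the step between LP and naive signals.

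Other integrin subunits, 14 of them measured, had 3 genes higher and 1 lower in LP cells than in naive T cells, and 10 that did not pass (median log2 difference 0.73, all genes -0.14). Of all genes, 15.1% were higher and 18.8% lower. Itga5, the fibronectin receptor chain, fell by 4.46 on the log2 scale (adjusted p = 0.0119, limma), from 5.84 on the naive array to 0.119 and 0.146 on the CXCR6 Hi arrays and 0.523 and 0.541 on the CXCR6 Lo arrays. Its LP signals were all under the array median. Itgb5, a partner of Itgav, rose by 2.10 (adjusted p = 0.0362, limma), with 15.2 and 27.5, 30.1 and 33.9, and 5.96. Itga3, a laminin receptor chain, rose by 1.60 (adjusted p = 0.0396, limma), with 4.80 and 3.18, 3.04 and 2.84, and 1.12. The third higher gene, Itgb6, is named after its values were seen and had signals under 1 on all 5 arrays. Itgb5 is a gene that stromal cells express, and the fibroblast and smooth muscle sums were also higher on every LP array than on the naive array. Over the LP arrays these sums were 109 and 173 (CXCR6 Hi) and 134 and 167 (CXCR6 Lo), which is not the order of Itgb5. The part of stromal cells in the Itgb5 difference was not tested.

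Genes that activate integrins or tie them to the cytoskeleton, 46 of them measured, had 7 higher, 9 lower and 30 not passed, close to the shares of all genes. Their median log2 difference was -0.15. Of the higher ones, Rap1a, the small GTPase upstream of talin, had signals of 168 and 223, 173 and 161, and 47.0 (log2 difference 1.93, adjusted p = 0.0218, limma). Sipa1l1, a Rap GTPase activating protein, rose by 2.35, the actin crosslinker Actn4 by 1.90 and the dim kindlin gene Fermt2 by 2.51. The brighter kindlin gene Fermt3 (log2 difference 0.43, adjusted p = 0.281, limma) and the talin gene Tln1 (-0.99, adjusted p = 0.0537, limma) did not pass. Among the lower ones, the tetraspanin Cd81 fell by 3.58 on the log2 scale (adjusted p = 0.0121, limma), from 57.0 on the naive array to 3.62 and 4.44, and 5.12 and 6.35. Cd81 is also a B cell gene, and the B cell marker sums given above were lower on the LP arrays too. Of the 9 B cell markers measured, 8 were below the naive array on all LP arrays and 1, Pax5, was above it. The part of B cells in the Cd81 difference was not tested. Vcl, the focal adhesion protein vinculin, fell by 2.31, the Rap exchange factor Rapgef1 by 2.34 and the Rap GTPase activating protein Sipa1 by 2.07.

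Between the subsets, 0 of the 46 passed and 6 had an unadjusted p under 0.05 (limma), where 6.55% of all genes did. On 18 both CXCR6 Hi arrays were above both CXCR6 Lo arrays (25.1% of all genes) and on 6 both were below (14.3%). Sipa1l1 was at 21.3 and 23.9 on the CXCR6 Hi arrays and 11.6 and 10.3 on the CXCR6 Lo arrays (log2 difference 1.05, adjusted p = 0.639, limma).

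The measured integrin ligands, 18 genes mostly made by non-T cells, had 6 higher, 2 lower and 10 not passed in LP against naive T cells, where 15.1% of all genes were higher and 18.8% lower. Col3a1, a fibroblast collagen, had signals of 24.0 and 36.1, 24.8 and 33.8, and 2.32 (log2 difference 3.66, adjusted p = 0.0145, limma). Lamb1 and Col4a1, basement membrane chains, rose by 2.49 and 1.67. Icam1, the LFA-1 ligand that T cells also carry, rose by 1.47 (adjusted p = 0.0334, limma), with 88.5 and 114 on the CXCR6 Hi arrays, 45.6 and 51.3 on the CXCR6 Lo arrays and 25.1 on the naive array. Its subset order was that of Itgal and Itgb2, and the log2 difference of 1.06 between them missed the threshold (adjusted p = 0.669, limma). Icam2 fell by 1.04 (adjusted p = 0.0456, limma).

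**Figure D4:**
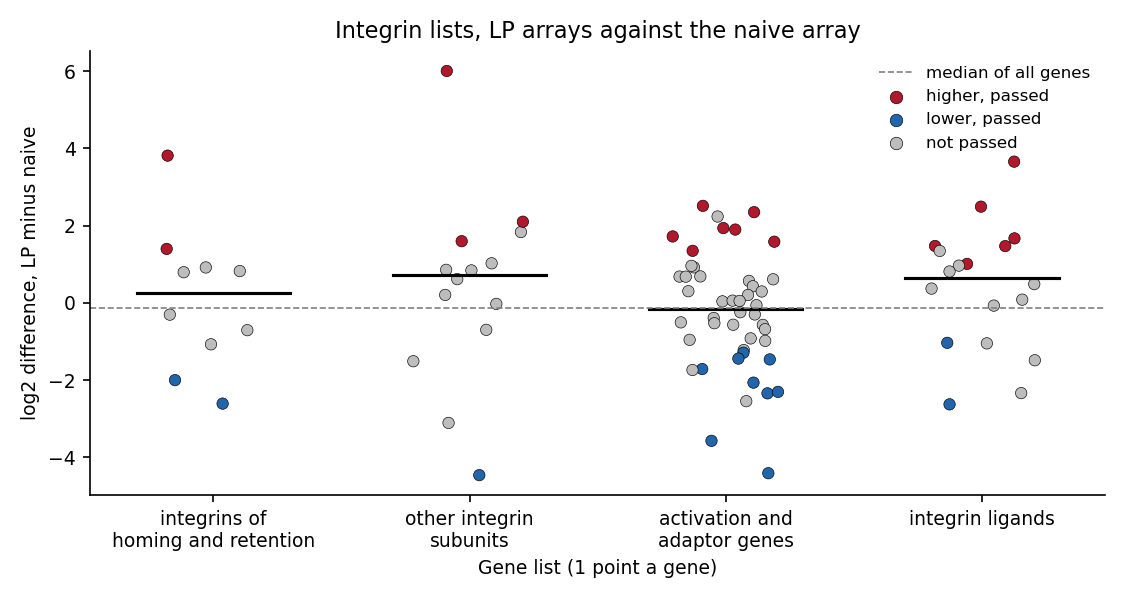
The log2 difference of LP minus naive for each gene of 4 lists, with 1 point a gene, red and blue for genes past the limma test, grey for the rest, a black bar at each list's median and a dashed line at the median of all genes (-0.14). The list medians are 0.24, 0.73, -0.15 and 0.65 from left to right, and Itgae is the highest point of the first list.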

How the data were processed

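RNA of sorted CD4+ T cells was measured on 5 Affymetrix Mouse Genome 430 2.0 arrays. The authors deposited linear intensity values scaled to an array median of 1, made with GeneSpring 11.5 per the methods and RMA per the submitters' notes. For background correction and filtering the tools are not given in the sources consulted, and methods and labels name different RNeasy kits. Signals were log2 transformed, after the 2 values of 0 were raised to 0.001, and dim genes were kept. Of 45101 probe sets, 34958 have 1 gene symbol (34741 matched RefSeq by Entrez ID), 932 have several and 9211 none. Of the first, 13 controls were left out.

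Groups were compared in limma 3.58.1 under R 4.3.3 (a linear model with moderated variances, all 5 arrays in 3 groups, two-sided, Benjamini-Hochberg over 18193 genes, threshold 0.05). The spread of the LP arrays was taken to hold for the naive array too, and the number of arrays limits the precision. The fit was tested on simulated data. The members and lists were chosen with earlier results of these data known. All 10 members are named with all probe sets. From the other lists up to 4 genes in each direction with the largest difference were named, among those past the test with a mean signal of 1 or more, and for Itgae the 5 nearest genes. Fermt3 and Tln1 were named beside Fermt2 after their values were seen. Alternatives were other probe set rules, a filter, quantile normalization, other treatments of low signals, another variance model, the methods' two-group test, a replicate block and leaving out each LP array. Summaries and plots used Python 3.11.15, pandas 2.3.3 and matplotlib 3.10.9.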

Additional observations from a re-analysis of the deposited data

Results flagged for a closer look

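The second probe set of Itgal, 1425367_at, was taken up because both CXCR6 Hi arrays were above the naive array (9.75 and 10.02 against 7.85) and both CXCR6 Lo arrays were below it (7.11 and 5.11). The CXCR6 Hi minus CXCR6 Lo log2 difference was 0.71 and did not pass (adjusted p = 0.790 over all probe sets, limma). On the brighter main probe set, both subsets were above the naive array.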

How the results depend on the processing

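Counts of integrins higher and lower in LP than in naive T cells (2 and 2) became 5 and 4 without genes under the 40th percentile of signal, 4 and 4 with the signal plus 1 or with a variance trend, 1 and 1 with the mean of probe sets, and 0 to 1 in each direction with 1 array left out. For CXCR6 Hi against naive (2 and 2) they became 4 and 3 with the filter, the signal plus 1 or the trend, 1 and 0 with the mean of probe sets, and 0 with any array left out. For CXCR6 Lo against naive (1 and 2) they became 2 and 3 with the filter, 1 and 4 with the signal plus 1 or the trend, 1 and 1 with the mean of probe sets or quantile normalization, and 0 with any array left out. No alternative gave an integrin call between the subsets. The shares of all genes in LP against naive, higher and lower, were 22.7% and 39.5% with the filter, 15.5% and 28.0% with the signal plus 1, 19.5% and 26.1% with the trend and 10.9% and 14.2% with the mean of probe sets. For CXCR6 Hi they were 22.4% and 35.4%, 14.6% and 25.4%, 18.4% and 23.4%, and 8.87% and 10.6%, and for CXCR6 Lo 20.0% and 39.1%, 13.1% and 27.2%, 17.4% and 25.4%, and 8.64% and 11.7%. With quantile normalization the shares for CXCR6 Lo were 12.8% and 10.1%. With any array left out, 0 of 18193 genes passed for either subset against naive in limma (6350 to 7949 at an unadjusted p under 0.05), so those counts of 0 say nothing particular to the integrins.

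Other subunits (3 higher, 1 lower) became 5 and 0 with the filter, 0 and 2 with signals under 1 raised to 1, 1 and 0 with the mean of probe sets, 4 and 2 with the signal plus 1, 5 and 2 with the trend, 2 and 0 without the _s_at and _x_at probe sets, and 0 to 1 in each direction with 1 array left out. Activation and adaptor genes (7 and 9) became 2 and 7 with the mean of probe sets, 14 and 15 with the signal plus 1, 15 and 15 with the trend, and 0 to 1 and 0 to 2 with 1 array left out. The filter gave 10 and 13. In LP against naive, 5.87% of all genes were higher and 18.3% lower with signals under 1 raised to 1. Without the _s_at and _x_at probe sets the shares were 14.4% and 18.6%.

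Directions turned for Itga1 with the mean of probe sets (LP against naive -1.84, CXCR6 Hi against naive -0.37, CXCR6 Lo against naive -3.30) and for Itgb7, CXCR6 Hi against naive, with quantile normalization (-0.00588) and without CXCR6 Hi replicate 2 (-0.0125, range -0.0125 to 0.0594 over arrays left out). Between the subsets they turned for Itga6 (-0.33 with the mean, -0.14 with quantile normalization, -0.18 without CXCR6 Hi replicate 1, -0.07 without CXCR6 Lo replicate 1, range -0.18 to 0.24 over arrays left out), Itgae (-0.10 with quantile normalization), Itgav (-0.0881 with the mean) and Itgb1 (0.52 with the mean). The mean of Itgb1 takes in the probe set 1426919_at, whose subset difference was 4.63 from LP signals of 0.235 or less. The mean of Itga1 takes in 1439713_at, at -5.07 for LP against naive. The cause of the turns was not tested further. Of the other values of single genes, 431 kept direction and side of the threshold, 32 came to pass and 55 no longer passed.

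With 2 pairs of arrays, the data do not settle whether the replicate numbers pair them. The correlation of deviations between arrays of the same number was 0.02 over all genes and 0.32 over the 7046 genes of mean log2 signal 2 or more, and genes are not independent. Summed epithelial markers were 62.0 and 64.4 on the arrays numbered 1 and 120 and 145 on those numbered 2. With the replicate block, Itga1 lost its LP against naive call (adjusted p = 0.0715, limma), and this comparison gave 1 integrin higher and 2 lower (9.37% and 9.93% of all genes), other subunits 1 and 1, activation and adaptor genes 4 and 4, and each subset against naive 0 and 0, as for all genes. Over all genes quantile normalization gave 2772 higher and 2307 lower in LP cells, where the deposited scaling gave 2756 and 3414.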
